A study of Mus musculus with 6 samples.

Results

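The nuclear genes of oxidative phosphorylation were followed in small RNA libraries of whole mouse hearts, prepared from 3 ADAR2-/- and 3 wild-type female siblings of the SV129 strain at postnatal day 6. ADAR2, encoded by Adarb1, is an enzyme that converts adenosine to inosine in double-stranded RNA. The ADAR2-/- animals lacked it constitutively and carried the pre-edited Gria2R/R allele, which rescues their early death. By the study's methods the wild-type siblings carried Gria2R/R as well, although their genotype label does not name it. The members were chosen by name from the deposited gene table. They are protein-coding genes whose symbol begins with Nduf, Uqcr, Sdha, Sdhb, Sdhc, Sdhd, Atp5, Cox4, Cox5, Cox6, Cox7 or Cox8, or is Cyc1 or Cycs. GENCODE M21 holds 100 such genes under 99 symbols, and 21 of them had a row among the 10065 rows of the table, of which 8439 are protein-coding. Levels of the other 79 were not analysed here, and for them only the annotation (length, overlap with other genes and shared sequence) is described.

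The table gives each gene 1 mean normalized count, which the authors averaged over all samples of both genotypes, so a mean of 5 stands for 5 reads per library after scaling for library size. Values per animal were not analysed here, and no spread between animals, no depth per library and no comparison of ADAR2-/- with wild-type hearts can be given for these genes. The levels below are therefore descriptions of heart at this age, pooled over genotype and without a test. The means summed to 214408 over all rows, and the lowest was 1.09.

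Oxidative phosphorylation makes most of the ATP of the beating heart. Complex I takes electrons from NADH and complex II takes them from succinate, and both pass them to ubiquinone. Complex III hands them to cytochrome c, complex IV uses them to reduce oxygen, and complex V, the ATP synthase, turns the resulting proton gradient into ATP. All complexes except complex II combine subunits of nuclear genes with subunits encoded in the mitochondrial genome. Libraries of short RNA are made for microRNAs. Reads on protein-coding genes can be pieces of longer transcripts, small RNAs that lie inside the gene, or reads of other loci with the same sequence.

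Few of these genes were found in the table, although they are among the well-expressed genes of heart muscle. A row was present for 10 of 44 genes of complex I, 1 of 8 of complex II, 3 of 9 of complex III, 1 of 20 of complex IV and 6 of 18 of complex V, and Cycs, the gene of cytochrome c, had none. These counts include assembly factors and related genes that the names take in. In all, 21% of the members had a row, against 38.2% of all 21951 protein-coding genes in the annotation (8386 genes). Whether these shares differ beyond chance was not tested. The authors' annotation is not given in the sources used here, so it is not known which genes without a row it held. The absence of a row is thus no measure of the reads of a gene.

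The authors' mean was low for most members. It was at least 10 in 6 of the 21, between 5 and 10 in 4, and under 5 in 11, which is 52.4% of the members against 37.7% of the protein-coding rows. Their median was 4.64 and that of the protein-coding rows 6.78. A single gene, Uqcrc1, stood far above the others at 255.9, and the next, Ndufaf2, had 28.1. Uqcrc1 alone held 64.3% of the members' summed mean. With it, the 21 genes made up 0.228% of the sum over protein-coding rows, and without it 0.0812%.

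**Figure D1:**
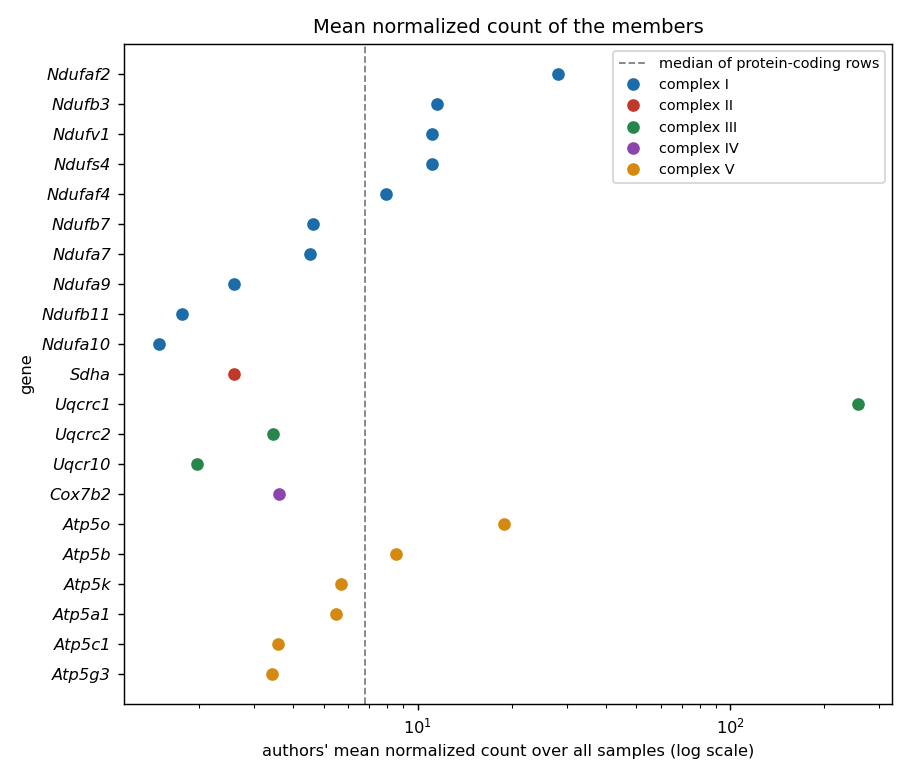
The authors' mean normalized count of each of the 21 members (points, log axis), ordered by respiratory complex and coloured by it, with the median of all protein-coding rows as a dashed line. Uqcrc1 lies at 255.9 and the other 20 genes between 1.48 and 28.1, 13 of the 21 below the line at 6.78.

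In complex I, the 7 core subunits encoded in the nucleus are conserved from bacteria. The only row among these 7 belonged to Ndufv1, the subunit that binds NADH. Its mean was 11.1, or 4.23 per kb of exons. The accessory subunits surround this core, and 7 of 29 had a row. Ndufb3, a small subunit of the membrane arm, had a mean of 11.5. Because its exons span only 763 bases, it had the highest level per kb of exons in the complex, 15.1. Ndufs4, an accessory subunit of the matrix arm whose loss causes Leigh-like disease in mice, had a mean of 11.1 and 4.10 per kb of exons.

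The remaining accessory subunits had means under 5. Ndufb7 had 4.64 and Ndufa7 4.52. Ndufa9, a subunit near the ubiquinone site, had 2.58. Ndufb11, an X-linked subunit of the membrane arm, had 1.76, and Ndufa10 had 1.48, the lowest mean of all members. On the scale per kb of exons the order changed, since Ndufb11 (1.94) has short exons and Ndufb7 (1.03) long ones, while Ndufa10 stayed lowest at 0.445.

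Among the 8 Ndufaf genes, whose products help to build complex I and leave it afterwards, 2 had a row. Ndufaf2 had the highest mean of the complex, 28.1, and Ndufaf4 had 7.91. Ndufaf2 (chr13) is also the longest of the 21 genes with a row, with a genomic span of 155.9 kb and only 2978 bases of exons. Its level per kb of exons was 9.43, above 93.2% of the protein-coding rows, and per kb of its whole span it was 0.180, above 67.5% of them.

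Complex II is the succinate dehydrogenase, shared with the tricarboxylic acid cycle. Sdha, its flavoprotein subunit, had a mean of 2.58 and 0.626 per kb of exons, below the median of protein-coding rows on both scales (6.78 and 1.36). Sdhb, Sdhc and Sdhd and the 4 assembly factors Sdhaf1 to Sdhaf4 had no row.

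In complex III the 2 large core proteins of the matrix side could be set side by side. Uqcrc1 had a mean of 255.9 and Uqcrc2 one of 3.44. On the scale per kb of exons these were 61.9 and 1.35, a ratio of 45.9, although the subunits stand in equal number in the complex. Uqcrc1 lies on the plus strand of chr9:108936633-108949623 (GRCm38), a span of 13.0 kb, and in GENCODE M21 no other gene overlaps it. Of the 4257 distinct stretches of 22 bases in its transcripts, 51 (1.20%) also occurred in transcripts of other genes, 38 of them in the processed pseudogene Gm18969. Only annotated transcripts were compared. Exons make up 4135 of the 12991 bases of Uqcrc1, and sequence that its introns share with other places was not examined. The cause of its high mean was not tested. Only 69 of the 8409 protein-coding rows with an annotation entry had a higher mean. Uqcr10, a small accessory subunit, had a mean of 1.96. Cyc1 and Uqcrfs1, the genes of the redox subunits cytochrome c1 and the Rieske protein, had no row.

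Complex IV, cytochrome c oxidase, had a row only for Cox7b2, a relative of Cox7b that is known mainly from testis. Its mean was 3.61 over a gene of 105.4 kb with 542 bases of exons. Scaled per kb of exons this was 6.66, above 89.5% of protein-coding rows, whereas per kb of span it was 0.0343, above 1.77% of them. The muscle isoforms Cox6a2, Cox7a1 and Cox8b and their ubiquitous partners Cox6a1, Cox7a2 and Cox8a had no row, nor had Cox4i1, Cox4i2, Cox6b1, Cox6b2, Ndufa4 and Ndufa4l2. A ratio of isoforms could thus be formed for none of the 6 pairs considered.

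In complex V, 3 of the 5 subunits of the F1 head had a row. Atp5b, the catalytic beta subunit, had a mean of 8.52, Atp5a1, the alpha subunit, had 5.50, and Atp5c1, the gamma subunit that turns inside the head, had 3.58. Per kb of exons they lay close together, at 2.01, 1.75 and 1.88. Atp5g3, 1 of 3 genes that encode the same c subunit of the rotor ring, had a mean of 3.42 and 1.57 per kb.

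Per kb of exons, Atp5o and Atp5k lay above these 4 genes. Atp5o, the oligomycin sensitivity-conferring protein that links the head to the peripheral stalk, had a mean of 18.8 and 9.55 per kb of exons (chr16:91925214-91931687, minus strand, GRCm38). The annotation holds a second gene model named Atp5o, which covers 242.6 kb, overlaps the first and had no row. Atp5k, subunit e in the membrane, had a mean of 5.68 and, with 616 bases of exons, 9.22 per kb.

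The transcripts of Atp5k share sequence with pseudogenes that had rows of their own. Atp5k-ps2, a processed pseudogene, had a mean of 10.1, above that of Atp5k itself, and Gm11438 had 5.49. The coding sequence of Atp5k (213 bases without the stop codon, gene at chr5:108433244-108434448, minus strand) is shown with the parts of both pseudogenes that align to it, to let a reader see how little separates them. Atp5k-ps2 lies at chr2:173984482-173984691 and Gm11438 at chr11:83681538-83681726, both on the minus strand (GRCm38). Capitals in the pseudogenes mark bases that differ from the aligned base of Atp5k.
Atp5k: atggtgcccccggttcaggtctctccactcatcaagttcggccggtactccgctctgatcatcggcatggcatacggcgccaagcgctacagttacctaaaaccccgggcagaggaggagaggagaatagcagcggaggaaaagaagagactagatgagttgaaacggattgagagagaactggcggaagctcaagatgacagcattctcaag
Atp5k-ps2: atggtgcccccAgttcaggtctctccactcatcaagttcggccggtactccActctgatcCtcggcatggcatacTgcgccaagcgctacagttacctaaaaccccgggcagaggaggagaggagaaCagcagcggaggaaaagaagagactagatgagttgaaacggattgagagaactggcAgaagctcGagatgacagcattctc
Gm11438: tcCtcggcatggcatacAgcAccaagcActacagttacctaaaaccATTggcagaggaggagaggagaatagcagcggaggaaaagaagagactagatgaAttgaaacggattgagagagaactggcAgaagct
Over the aligned bases Atp5k-ps2 matched Atp5k at 201 and differed at 7, with 2 bases of Atp5k missing from it, and Gm11438 matched at 125 and differed at 9. The longest identical run was 51 bases in each, more than the 50 bases of a sequencing read, the longer of the lengths that the methods state. Reads from such a run cannot be assigned to 1 of these genes, and how the authors' counting treated them is not given in the sources used here. The mean of Atp5k is for this reason uncertain.

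Several other members share as much or more of their sequence. The share of 22-base stretches found in transcripts of other genes ran from 0.0% in Atp5g3 to 26.0% in Ndufb11, with a median of 3.26% over the 21 members with a row and 4.54% over the 79 without. For Ndufb11 all 231 shared stretches occurred in the pseudogene Gm6444. Ndufb3 shared 140 of 740 stretches with the pseudogene Gm45930, and Atp5c1 shared 250 of 1997 with Gm8722. Atp5o shared 330 of 1985 with Gm5436. None of these pseudogenes had a row. Sharing with genes that had a row was listed only from a minimum number of stretches, set lower for pseudogenes than for other genes. Smaller overlaps are not given. Within this limit, Ndufaf2 had 173 of its 2942 stretches in Trpc6 (mean 20.9), 172 in Noct (2.49) and 144 in Patj (21.7). Atp5b shared 197 of 4264 with Gm4707 (3.58) and Ndufb7 39 of 4520 with the pseudogene Gm13171 (19.97). The means of these members are uncertain to the extent that reads fell on the shared stretches, which was not tested.

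The length of a gene moved with whether it had a row. Over all 8409 protein-coding rows the mean rose with the genomic span (Spearman's rho 0.56 across genes, which share libraries and are not independent) more closely than with the length of exons (rho 0.27). Genes of oxidative phosphorylation are short, with a median span of 7.42 kb against 17.4 kb for all protein-coding genes. Of the members, 66 spanned up to 10 kb and 11 of these (16.7%) had a row. Among other protein-coding genes of that span the share was 6.86% (530 of 7721). Above 10 kb it was 29.4% of members (10 of 34) and 55.4% of other genes (7835 of 14130). Most of these members, 26 of 34, spanned 10 to 30 kb, where the shares were 23.1% and 25.3%, and only 8 were longer, whereas the other genes above 10 kb include many long ones. Within the members with a row, the mean did not follow span (rho 0.05, n = 21) or exon length (rho 0.24) closely, and without Uqcrc1 these were 0.06 and 0.14.

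**Figure D2:**
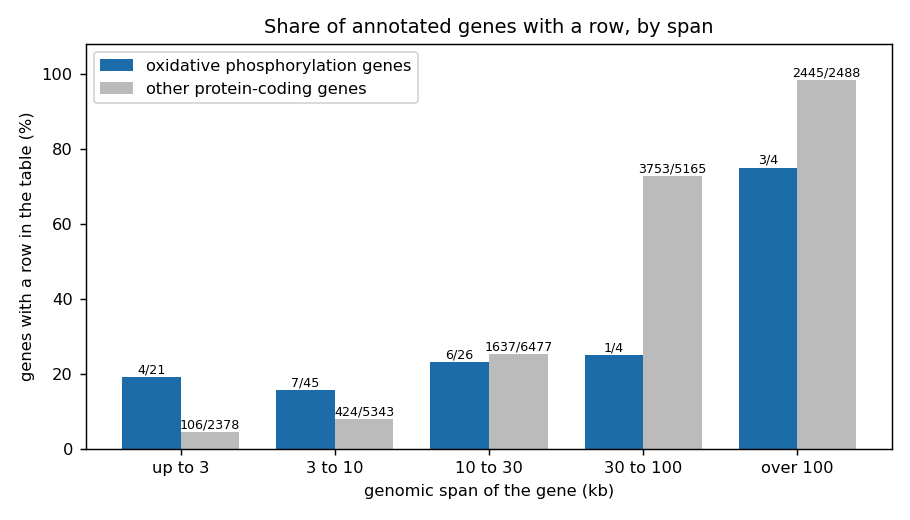
Percent of annotated genes with a row in the table (bars from 0) by genomic span in kb, for oxidative phosphorylation genes and all other protein-coding genes, with counts above the bars. Among other genes the share climbs from 4.46% at up to 3 kb to 98.3% over 100 kb, while among members it runs from 19.0% to 75.0%. Between 10 and 30 kb the shares are 23.1% of members and 25.3% of other genes, and there are only 4 members in each of the 2 longest classes.

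Which scale is used for the level sets where the members stand. As deposited, 8 of 21 members (38.1%) lay above the median of protein-coding rows. Per kb of exons 16 (76.2%) did, and the members' median of 2.03 stood at 1.49 times the protein-coding median of 1.36. Per kb of genomic span 16 did as well, with a median of 0.769 against 0.118. No row had a mean below 1.09, so a short gene with a row cannot take a low value per kb. The standings on both scales per kb are therefore set in part by the shortness of the members. No statement on high or low expression of the group therefore holds on all scales. Whether introns were counted is not given in the sources used here.

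**Figure D3:**
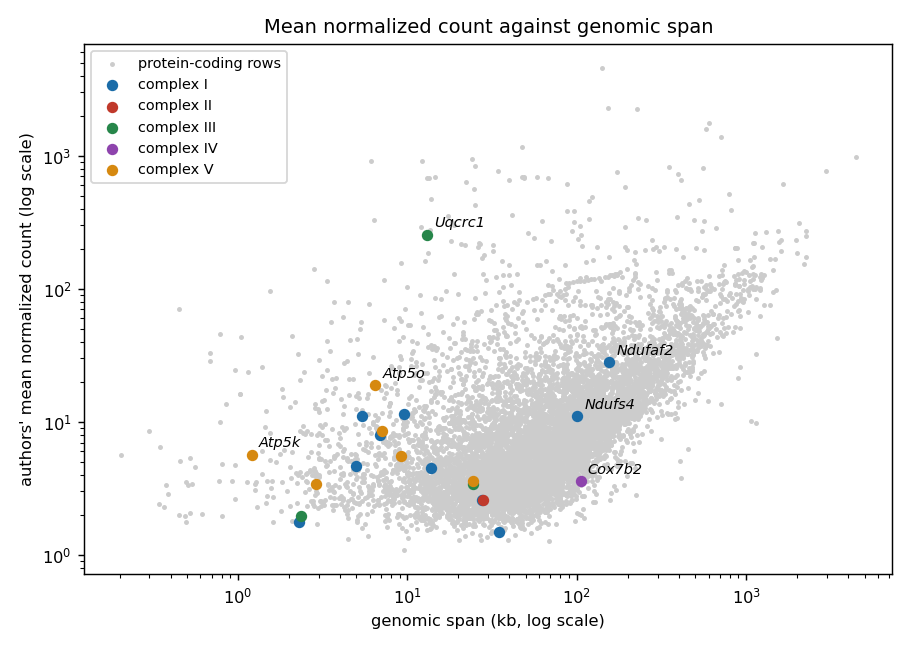
The authors' mean normalized count against genomic span in kb (both axes log) for protein-coding rows (grey) and the 21 members (coloured by complex). Uqcrc1, with 255.9 at 13.0 kb, lies far above genes of its span, whereas Ndufaf2, Ndufs4 and Cox7b2 lie at spans of 100 kb and over among or below the grey points.

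Some members share their place in the genome with another gene. Of the 21 members with a row, 10 (47.6%) overlapped another annotated gene, against 62.3% of all protein-coding genes with a row. None of the 21 overlapped a gene that had a row itself, against 17.9% of all protein-coding genes with a row. Of the 79 without a row, 34 (43.0%) overlapped another gene and 8 (10.1%) a gene with a row. Among all protein-coding genes without a row the shares were 36.8% and 10.9%. Among genes without a row, overlap with a gene that had one was thus about as frequent in the members as in the background. Cox4i1, the main isoform of subunit 4, lies inside Gm20388, a gene model of 4435 kb on the same strand with a mean of 976.0. On the opposite strand Cox6c overlaps Vps13b (mean 33.2) and Ndufb2 overlaps Braf (29.4). The others were Cox6a2 with Itgad, Atp5j with Gabpa, Atp5f1 with Gm42890, Ndufs1 with Ino80dos and the longer Atp5o model with Itsn1. The part of these overlaps in the absence of a row was not tested.

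Genes for miRNAs or snoRNAs lie on the same strand within 3 of the 21 members with a row. The share among all protein-coding rows was not counted, so the 3 cannot be called many or few. Atp5b holds Snord59a and Mir677, Atp5c1 the snoRNA gene Gm23608, and Ndufa10 the miRNA gene Mir6900, and none of these small RNA genes had a row. The means of the 3 hosts were 8.52, 3.58 and 1.48, and whether reads of the small RNAs are among them was not tested.

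The subunits encoded in the mitochondrial genome were listed in full, 13 of 13, with means from 5.38 for mt-Nd6 to 96.1 for mt-Co1. Per kb of exons their median was 27.8, and that of the nuclear members with a row 2.03. In complex I the mitochondrial subunits ran from 9.69 (mt-Nd5) to 42.0 (mt-Nd2) per kb and the nuclear genes from 0.445 to 15.1, so that only Ndufb3 lay within the mitochondrial range. In complex III mt-Cytb had 20.8, between Uqcr10 (3.36) and Uqcrc1 (61.9). In complex V mt-Atp8 and mt-Atp6 had 27.8 and 48.4, above all 6 nuclear genes. In sum the 13 genes had 364.8 and the 21 nuclear genes 397.8, or 141.9 without Uqcrc1. Each gene has a single pooled value, and the difference was not tested.

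**Figure D4:**
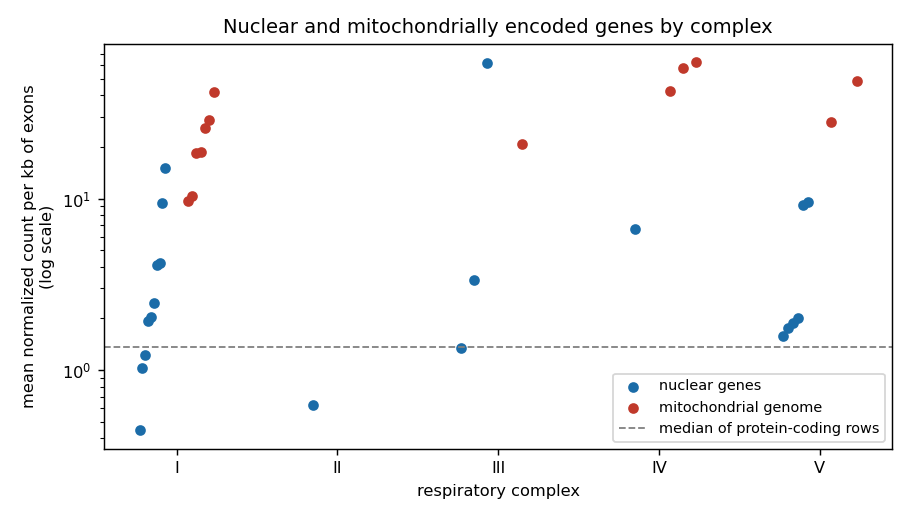
Mean normalized count per kb of exons (log axis) by respiratory complex, for the nuclear members with a row (blue) and the genes of the mitochondrial genome (red), with the median of protein-coding rows dashed. Outside complex III, where Uqcrc1 lies at 61.9 above mt-Cytb at 20.8, the overlap is limited to Ndufb3 in complex I.

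Cytosolic ribosomal protein genes, another group of short and highly transcribed housekeeping genes, gave a further reference. A row was present for 40 of 84 (47.6%), with a median span of 3.33 kb over all 84. Over the genes with a row, their median level per kb of exons was 2.02, beside 2.03 for the oxidative phosphorylation genes with a row. Genes without a row have no value, so these medians do not compare the groups as a whole. The difference in the share with a row was not tested.

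The tissue label was checked on markers. Of 9 cardiomyocyte genes 6 had a row, against 38.2% of all protein-coding genes. They were Myh6 (424.5, a gene that also holds the miRNA gene Mir208a), Ryr2 (63.6), Actc1 (10.03), Pln (5.39), Tnnt2 (4.82) and Myl2 (3.99). Nppa, Myl7 and Tnni3 had none. Fibroblast genes had a row in 5 of 6 and endothelial genes in 4 of 5. Erythroid genes had one in 4 of 6, leukocyte genes in 1 of 5, smooth muscle genes in 0 of 4 and liver genes in 1 of 4. The median span was 8.32 kb for the cardiomyocyte list, 37.45 kb for the fibroblast list and 45.6 kb for the endothelial list. Since the share with a row rose with span, these counts do not rank the cell types and do not settle the tissue label. In bulk tissue, fewer cells of a type and less RNA per cell cannot be told apart.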

How the data were processed

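Small RNA of whole hearts from 3 ADAR2-/- and 3 wild-type mice was sequenced. The authors removed adaptors with Cutadapt, mapped reads with Bowtie and compared genotypes with DESeq. The submitters' processing notes name mm9. The methods also describe sequencing at a second, shorter read length and a mapping of reads to mature microRNA sequences with NextGenMap. Program versions, annotation and counting rule are not given in the sources used here. The signal used is the mean normalized count as deposited, for which the authors scaled the reads of every gene to library size before taking 1 average of all 6 hearts. The other 6 numeric columns hold the authors' own comparison of the genotypes (fold changes, their error, a statistic and P) and were not used. The methods state only a minimum number of reads per sample; the depth of each library is not given in the sources used here, so no interval is given. The deposited means sum to 214408 over all rows.

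Symbols, gene types and coordinates came from GENCODE M21 (GRCm38) through the Ensembl identifiers; 60 rows had no entry. Coordinates are those of that annotation and were not used with mm9. Means were divided by the union of exons, and for the alternatives by the longest transcript, the coding length or the genomic span. Stretches of 22 bases were compared between transcripts on the same strand, and Atp5k with its pseudogenes by local alignment. Genes were named by a rule: isoform pairs, core subunits, the 3 highest and lowest per kb of exons in each complex, and members with a mean under 5; the few members left were named as well. Other genes, among them Atp5k-ps2, Gm11438 and Gm20388, were picked with their values in view. The members and lists were chosen with earlier results of these data known. The helper functions were tested on simulated data. Python 3.11.15, numpy 2.4.6, pandas 2.3.3, scipy 1.17.1 and matplotlib 3.10.9 were used.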

Additional observations from a re-analysis of the deposited data

How the results depend on the processing

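Of 33 alternative values, 15 stayed within 1.5 times the value reported and 18 moved further. The median level relative to the protein-coding median, 1.49 over all members, became 0.684 with no length scaling, 0.316 on coding length, 6.53 on genomic span and 2.72 for means of at least 10 (6 genes). For complex I, 1.66 became 0.926, 0.380 and 4.66 on the first 3 of these scales. For complex III, 2.48 became 0.508, 0.316 and 7.04, and 17.7 with means of at least 10, where Uqcrc1 alone is left. For complex V, 1.43 became 0.824, 0.208 and 10.1, 2.29 on the longest transcript, and 2.73 with means of at least 10, where Atp5o alone is left. The cause was not tested. The members' share of the protein-coding sum, 0.228%, became 0.0812% without Uqcrc1, an alternative chosen after seeing the data. The share of members above the protein-coding median, 76.2% per kb of exons, was 38.1% with no length scaling.

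No paired analysis was possible because the values are pooled over all samples, and the genotype test, its pseudocount and filter and the leaving out of replicates were not run for the same reason. The isoform ratios and the placing of Ndufa4 gave no value, since those genes had no row. No member with a row had over 50% shared stretches, so that alternative left the same genes. Means under 5, found in 11 members, rest on few reads.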

Other observations

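Other nuclear genes of mitochondrial function were also described. Of 14 enzymes of the tricarboxylic acid cycle, 7 had a row in the table, with means from 2.74 (Idh2) to 20.9 (Sucla2) and a median span of 24.4 kb over the 14. Citrate synthase, Cs, which starts the cycle, had 4.43. Of 33 further assembly factors 8 had a row, led by Surf1, which serves complex IV, with a mean of 14.4 and 8.24 per kb of exons. Of 11 regulators of mitochondrial genes 6 had a row. Ppargc1b, a coactivator of mitochondrial biogenesis whose gene also holds a miRNA gene, had the highest mean of these, 96.5, and its relative Ppargc1a had 15.2. Nrf1 and Gabpa, transcription factors of nuclear respiratory genes, had 4.37 and 3.17. Tfam, which packs mitochondrial DNA and helps to start its transcription, had no row. Each is a single mean pooled over both genotypes, and no difference among them was tested.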
